A study of Mus musculus with 4 samples.

Results

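The genes described here are 10 members of the inflammasome and IL-1 pathway, taken by symbol from lists of 23259 genes with a value: the sensors Nlrp1a, Nlrp1b, Nlrp3 and Aim2, the adaptor Pycard, the caspases Casp1 and Casp4, the pore-forming substrate Gsdmd, and the cytokines Il1b and Il18. All 10 were found. RNA was sequenced from macrophages grown from the bone marrow of C57BL/6 mice aged 7 weeks and kept with IL-4 for 24 h. The label wild type was given to 2 libraries and the label Sema6D-/-, for mice homozygous for a disrupted gene of the membrane protein Sema6D, to the other 2. IL-4 was given to both groups. The sources used here give neither the allele nor whether libraries with the same label came from separate mice or cultures. The p-values rest on the spread between 2 samples per label, moderated over all genes of the fit. That spread may be only technical.

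Inflammasomes are protein complexes that assemble in the cytosol when a sensor meets a microbial product or a sign of cell damage. The adaptor ASC, encoded by Pycard, links many sensors to caspase-1, which cuts the precursors of IL-1β and IL-18 into active cytokines and cuts gasdermin D, whose fragment opens pores in the plasma membrane. Caspase-11, encoded in mice by Casp4, binds bacterial lipopolysaccharide directly and also cuts gasdermin D. Macrophages usually hold ASC, caspase-1 and gasdermin D at rest, whereas Il1b and Nlrp3 are induced by inflammatory stimuli, a step called priming.

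The labels could not be checked by the targeted gene. Sema6d, on chromosome 2, was at 0.166 and 0.389 FPKM in the libraries labelled wild type and at 0.106 and 0.315 in those labelled Sema6D-/-, where FPKM is the fragment number scaled to transcript length and library size. The labels overlapped at these low levels, and the titles of the samples labelled wild type start with K and those of the others with W, so each direction is that of the libraries as labelled. If the labels were exchanged, every rise and fall given here would be reversed. Estimated depth was 8200000 to 9100000 fragments per library. All 9 macrophage markers on the list were found and tested, and 1 rose (Emr1) while 3 fell (Itgam, Lyz2 and Cd14). Their summed level was 5688 to 5976 FPKM for the label wild type and 5362 to 5388 for Sema6D-/-. Markers of other cells summed to 273 to 294 against 671 to 811 FPKM for neutrophils (13 of 14 found, none at 0 in all libraries, and of 12 tested 6 rose while Csf3r and Mmp9 fell), 2.24 to 2.96 against 7.03 to 11.5 for mast cells and basophils, and 4.54 to 5.33 against 13.2 to 17.2 for eosinophils. Dendritic cell markers summed to 404 to 410 against 306 to 322 FPKM, mostly from Itgax, and stromal markers to 5.76 to 11.1 against 5.38 to 8.05. T and NK cell, B cell and erythroid markers each summed to under 2 FPKM in every library, with Ncr1 and Pax5 at 0 in all of them. The part of these other cells in the differences below was not tested, and in bulk RNA fewer cells of a type and less RNA per cell cannot be told apart.

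The clearest difference lay in the Nlrp1 cluster, whose genes encode sensors that are activated by proteolytic cleavage, as by the anthrax lethal factor for some NLRP1B alleles. In the GRCm38 assembly, which mm10 names, RefSeq places Nlrp1a at chr11:71091197-71144969, Nlrp1b at chr11:71152574-71242514 and the transcribed pseudogene Nlrp1c-ps at chr11:71242430-71285232, all read from the reverse strand. The RefSeq promoters of both sensors run from 250 bases before to 50 after a RefSeq start of transcription. They are shown because the copies are alike in sequence while their RNA levels moved in opposite directions. Capitals mark the letters GAGGAA, the core of sites for the myeloid factor PU.1.
Nlrp1a: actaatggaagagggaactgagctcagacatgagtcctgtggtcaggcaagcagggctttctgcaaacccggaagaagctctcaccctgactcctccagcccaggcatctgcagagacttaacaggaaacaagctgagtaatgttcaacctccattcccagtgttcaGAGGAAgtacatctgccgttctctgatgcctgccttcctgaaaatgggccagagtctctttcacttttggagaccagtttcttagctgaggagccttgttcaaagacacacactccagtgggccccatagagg
Nlrp1b: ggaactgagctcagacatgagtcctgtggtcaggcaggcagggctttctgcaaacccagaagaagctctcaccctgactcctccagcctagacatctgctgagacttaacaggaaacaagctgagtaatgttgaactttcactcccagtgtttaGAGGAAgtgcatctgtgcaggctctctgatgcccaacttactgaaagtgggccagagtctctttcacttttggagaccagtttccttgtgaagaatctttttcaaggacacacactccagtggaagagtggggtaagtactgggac
The first sequence covers chr11:71144655-71144954 and the second chr11:71230684-71230983, both written on the reverse strand, 5′ to 3′. Both windows lie inside the gene spans given above, so the starts used are not the outer ends of the genes. Over 282 aligned bases 253 were identical, or 89.7%. The GAGGAA match began at -83 in the Nlrp1a promoter and at -96 in that of Nlrp1b, where 0 is the first base of the start used.

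Nlrp1a was at 0.262 and 0.214 FPKM in the libraries labelled wild type and at 3.97 and 4.36 in those labelled Sema6D-/-. Both libraries labelled Sema6D-/- were high and the labels did not overlap. By the estimated depth these levels rest on about 9 and 8 fragments against 126 and 141. The mean rose from 0.238 ± 0.034 to 4.17 ± 0.28 FPKM (SD, n = 2 libraries per label), a 17.5-fold change. Differences were tested with limma on log2(FPKM + 1), a scale that understates the change of low genes, with p-values adjusted by the Benjamini-Hochberg method over the 10115 genes whose mean was at least 1 FPKM. On that scale the difference, Sema6D-/- minus wild type, was 2.06 ± 0.13 (SE; limma adjusted p = 0.00184). It was the 69th largest in size among the genes tested. Nlrp1a passed the filter on low values only through the libraries labelled Sema6D-/-.

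Nlrp1b went the other way. Its level was 7.50 and 6.91 FPKM for wild type as labelled and 4.97 and 3.82 for Sema6D-/-, so that the labels again did not overlap. The mean fell from 7.21 ± 0.42 to 4.39 ± 0.81 FPKM (SD, n = 2), a difference of -0.61 ± 0.13 (SE; limma adjusted p = 0.0436). This call ended when any 1 of the 4 libraries was left out, with differences from -0.77 to -0.46 (highest limma adjusted p = 0.164). Nlrp1b was at 28.6 and 32.3 times the level of Nlrp1a in the libraries labelled wild type and at 1.25 and 0.877 times in those labelled Sema6D-/-.

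Nlrp1c-ps, the neighbouring pseudogene, had values of 0.914 and 1.01 FPKM, about 26 and 29 fragments, in the libraries labelled Sema6D-/- and was listed at 0 in the others. It lay under the filter. In a fit of all 23259 genes its difference was 0.97 (limma adjusted p = 0.0291), against 0.92% of genes past the threshold in that fit. The call ended without either library labelled wild type (highest limma adjusted p = 0.169), with the replicate number as a block (0.252), with robust estimation (0.11), after quantile normalization (0.0503) and with no intensity trend in the variances (0.0505). Summed over Nlrp1a, Nlrp1b and Nlrp1c-ps, the level was 7.77 and 7.12 FPKM for the label wild type and 9.85 and 9.20 under Sema6D-/-. Nlrp1a made up 3.38% and 3.0% of that sum in the former and 40.3% and 47.4% in the latter.

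**Figure D1:**
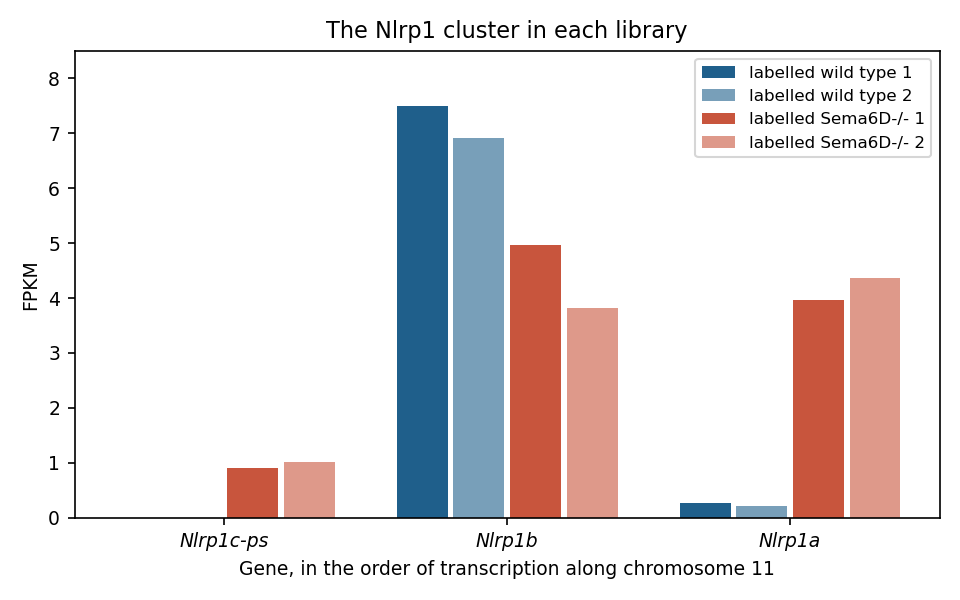
FPKM (bars, from 0) of the pseudogene Nlrp1c-ps and the sensors Nlrp1b and Nlrp1a in each of the 4 libraries, blue for the label wild type and red for Sema6D-/-. Nlrp1b stands at 6.91 to 7.50 against 3.82 to 4.97 FPKM and Nlrp1a at 0.214 to 0.262 against 3.97 to 4.36, and Nlrp1c-ps is listed at 0 under the label wild type.

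Reads of near-identical copies can be assigned to the wrong gene, and the sources used here do not say how the quantification treated such reads. Of the 4256 distinct windows of 50 nucleotides in GENCODE transcripts of Nlrp1a, 76 (1.79%) also occurred in transcripts of Nlrp1b and 12 (0.282%) in those of Nlrp1c-ps. Windows of 100 nucleotides were shared with Nlrp1b in 3 of 4356 cases. These figures hold for the reference assembly, and the read length is not stated in the sources used here.

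Genes around the cluster were examined after the values of Nlrp1a were seen. Within 500000 bases of its ends, 22 other genes were listed and 16 were tested. All 16 lie on the Nlrp1a side, and Wscd1, the only gene listed beyond Nlrp1c-ps, was at 0 FPKM in every library. Mink1, which encodes a serine/threonine kinase, passed (55.9 against 42.6 FPKM, difference -0.39, limma adjusted p = 0.00995) and the other 15 did not. Without either library labelled Sema6D-/- Mink1 did not pass (highest limma adjusted p = 0.093). Differences among the 16 ran from -0.39 to 0.52. Over all genes 9.72% passed in either direction.

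The other sensors differed little. Nlrp3, which responds to potassium efflux and many forms of membrane damage, was at 4.85 and 4.02 FPKM for the label wild type against 4.59 and 5.12 under Sema6D-/-. The labels overlapped, and the difference was 0.11 ± 0.12 (SE; limma adjusted p = 0.623). Aim2, a sensor of cytosolic double-stranded DNA, was at 18.6 and 18.4 against 16.8 and 17.3 FPKM. Its labels did not overlap but the difference of -0.11 ± 0.06 (SE) did not pass (limma adjusted p = 0.300).

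Pycard was at 63.5 and 55.6 FPKM in the libraries labelled wild type and at 50.4 and 50.3 in those labelled Sema6D-/-. The labels did not overlap, with wild type replicate 1 the highest of the 4. The difference was -0.23 ± 0.07 (SE; limma adjusted p = 0.122). It was -0.14 without wild type replicate 1 (limma adjusted p = 0.262) and -0.33 without wild type replicate 2 (0.05002).

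The caspases, which lie 1567 bases apart on chromosome 9, did not pass the test. Casp1 was at 122 and 125 FPKM for the label wild type against 140 and 133 under Sema6D-/-, a difference of 0.14 ± 0.05 (SE; limma adjusted p = 0.141). Casp4 was at 13.1 and 14.6 against 13.5 and 14 FPKM. Its labels overlapped and the difference was -0.01 ± 0.08 (SE; limma adjusted p = 0.951). Casp1 RNA thus stood above that of Casp4 in each library, on a scale that divides by length.

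Gsdmd, the substrate of both caspases, on chromosome 15, was lower under the label Sema6D-/-. It was at 80.2 FPKM in each library labelled wild type and at 62.9 and 65.7 in those labelled Sema6D-/-. The mean fell from 80.2 ± 0.037 to 64.3 ± 2.0 FPKM (SD, n = 2), a 1.25-fold change with a difference of -0.31 ± 0.05 (SE; limma adjusted p = 0.0181). The call ended when any 1 library was left out, while the difference stayed between -0.35 and -0.28 (highest limma adjusted p = 0.129).

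The cytokine genes were both low and lay on opposite sides. Il1b was at 0.719 and 0.264 FPKM for the label wild type against 0.0983 and 0.0948 under Sema6D-/-. The labels did not overlap, but the estimates correspond to about 9 and 3 fragments against 1 in each library, too few for a fold change. Il1b lay under the filter, and in the fit of all genes its difference of -0.43 ± 0.19 (SE) did not pass (limma adjusted p = 0.630). Il18 was at 2.75 and 4.03 against 5.18 and 5.65 FPKM, or about 22 and 32 against 37 and 41 fragments. The labels did not overlap, yet the difference of 0.56 ± 0.16 (SE) did not pass (limma adjusted p = 0.0983). Without wild type replicate 2, the higher library of that label, it was 0.77 and passed (limma adjusted p = 0.0434).

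**Figure D2:**
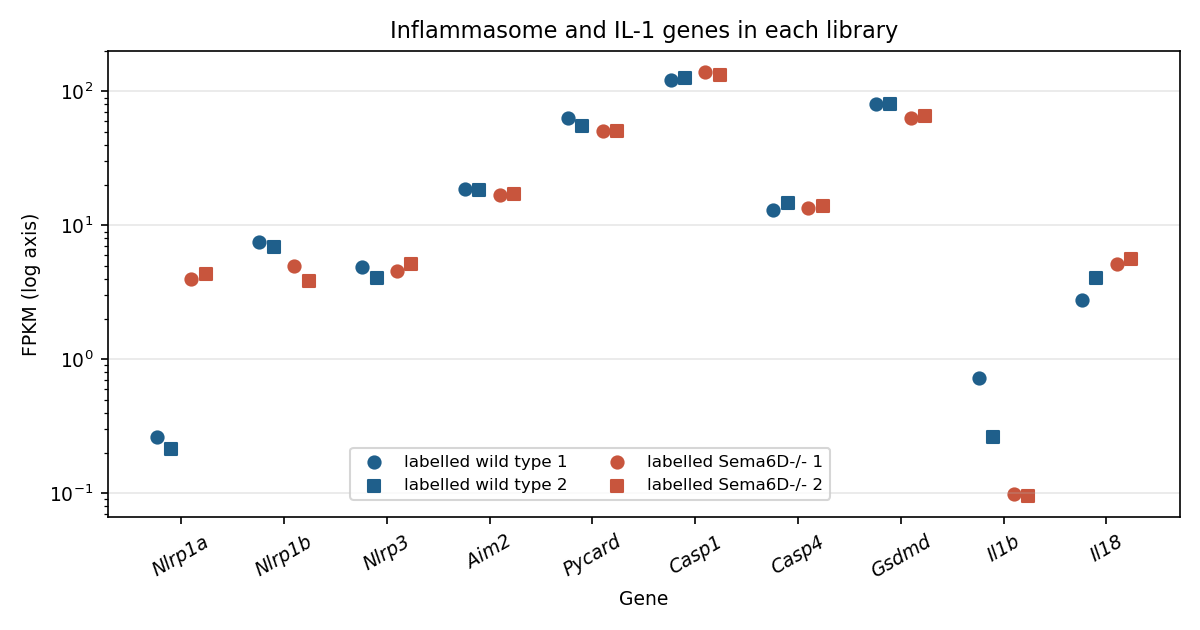
FPKM on a log axis for the 10 genes in each library, with circles for replicate 1 and squares for replicate 2 of each label. Nlrp1a separates widely between labels, Casp4 and Nlrp3 overlap, and Il1b lies under 1 FPKM in every library.

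**Figure D3:**
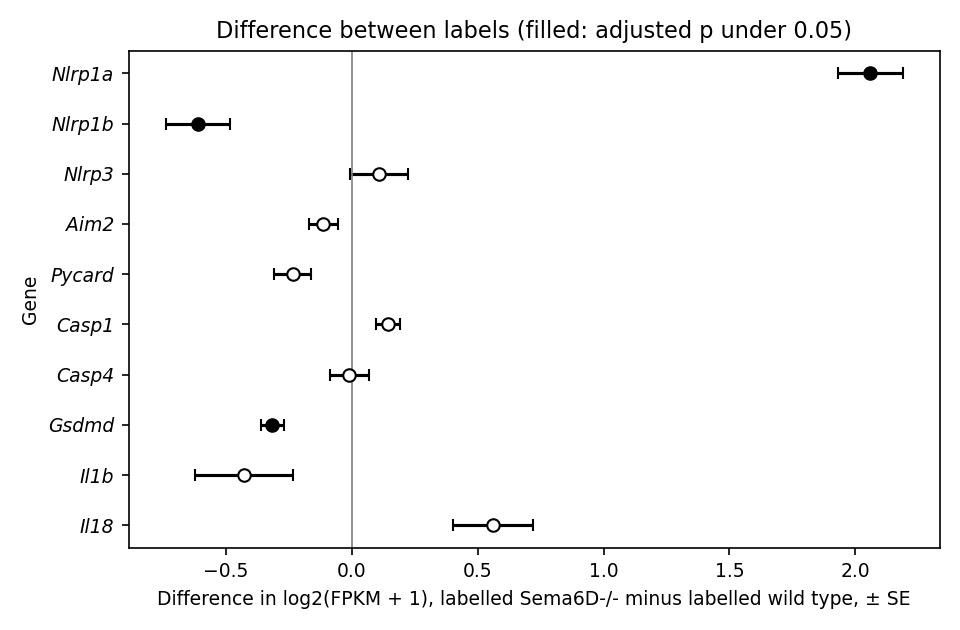
Difference in log2(FPKM + 1), Sema6D-/- minus wild type, with its SE from limma for the 10 genes, with Il1b from the fit of all genes. Filled points passed at an adjusted p under 0.05: Nlrp1a at 2.06, Nlrp1b at -0.61 and Gsdmd at -0.31.

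Of the 10 genes 9 passed the filter, and of these 1 rose and 2 fell, while 9.72% of all genes tested passed (4.8% higher and 4.91% lower). The median difference over the 9 was -0.01, against 0.0029 over all genes tested. The labels did not overlap for 7 of the 9, 3 of them higher and 4 lower under Sema6D-/-, against 56.2% of all genes tested. Only Nlrp1a among the 9 differed by at least 1 in log2(FPKM + 1), a size that 2.23% of all genes tested reached.

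Levels per transcript length differed widely between these genes. Casp1 was highest, with a mean over the 4 libraries of 129.9 FPKM, followed by Gsdmd at 72.3 and Pycard at 55.0, whose ranges over the libraries overlapped. Aim2 at 17.8 and Casp4 at 13.8 FPKM each stood apart from the genes above and below them. Nlrp1b, Nlrp3 and Il18, at 5.80, 4.65 and 4.4 FPKM, did not separate from one another, nor did Il18 from Nlrp1a at 2.2. Il1b was lowest at 0.294 FPKM, with a range that met that of Nlrp1a. The order of these last 2 came from the libraries labelled Sema6D-/-, since for the label wild type Nlrp1a was the lower, at a mean of 0.238 against 0.491 FPKM. Casp1 exceeded 96.1% and Il1b 23.0% of the genes with a mean above 0.

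Likeness of pattern was measured as the distance between centred log2(FPKM + 1) values over the 4 libraries, for the 3 tested genes with the largest differences. The nearest to Nlrp1a were Bex1, Snord17 and Pdpn, at distances of 0.0884, 0.127 and 0.223. Bex1 and Snord17 were listed at 0 under the label wild type and near 3 FPKM under Sema6D-/-, and Pdpn was at 0.515 and 0.567 against 4.58 and 4.62. Nearest to Nlrp1b were Ung, Timeless and 1110065P20Rik (0.0863, 0.0941 and 0.11), and nearest to Il18 were Decr2, Pltp and Bambi-ps1 (0.0469, 0.0853 and 0.105). With 4 libraries many genes share such a pattern.

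Promoters of 9 of the 10 genes were matched in the RefSeq table of GRCm38.p6, 12 promoters in all, since Nlrp1b, Nlrp3 and Casp4 have more than 1 start. Motifs were searched on both strands. The letters GAGGAA occurred in 6 of the 12 promoters, those of 6 genes, against 28.3% of all 32851 promoters in the table. The STAT6 site, TTC and GAA with 4 bases between them, which IL-4 signalling uses, occurred in 4 of the 12, for Nlrp1a, Nlrp1b, Nlrp3 and Il18, against 6.95% of all promoters. In Nlrp1a this match, at -87, shares bases with the GAGGAA match. The Nlrp1b match lies in the promoter of its other start, not the sequence shown. A kappaB match was found in 3 of the 12, for Nlrp3 and in the 2 overlapping windows of Casp4, against 8.46% of all promoters. The interferon-stimulated response element (ISRE), the GAS pattern TTCNNNGAA and the AP-1 pattern TGANTCA had no match in the 12 promoters, against 3.44%, 8.3% and 7.81%.

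Other sensors and AIM2-like receptors were lower as far as they passed. Of 27 listed genes 18 were tested, 7 fell and 0 rose, against 4.91% of all genes tested that passed as lower. The median difference was -0.44. Mnda, Ifi204, Mndal and Ifi203, relatives of Aim2 with a PYRIN or DNA-binding HIN domain, were those with the smallest p. Ifi204 was at 111 and 125 FPKM for the label wild type against 83.3 and 81.9 under Sema6D-/- (difference -0.51, limma adjusted p = 0.0137). Mnda was at 20.3 and 21.1 against 13.7 and 12.7 FPKM (difference -0.61, limma adjusted p = 0.00838). Labels did not overlap for any of these 4, but the family has similar copies, so single levels are uncertain. Nlrc4, the sensor of bacterial flagellin and secretion systems with the NAIP proteins, was at 3.74 and 4.33 against 3.0 and 3.51 FPKM and did not pass (difference -0.24, limma adjusted p = 0.282, and -0.16 without wild type replicate 2 or Sema6D-/- replicate 1). Of the 7 calls on this list most ended without wild type replicate 2 or Sema6D-/- replicate 2, and all ended without Sema6D-/- replicate 1. Ifi204 and Mnda lost their calls without either library labelled Sema6D-/- (highest limma adjusted p = 0.114 and 0.0683).

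Genes of inflammasome assembly and regulation mostly did not pass. Of 30 listed 28 were found and 27 tested, 6 fell and 0 rose, against 4.91% of all genes tested that passed as lower. The median difference was -0.05. Gbp2 and Gbp3, interferon-inducible GTPases of a family that coats bacteria and exposes their lipopolysaccharide to caspase-11, fell from 33.4 ± 2.3 to 17.5 ± 2.0 and from 11.7 ± 0.33 to 5.86 ± 0.79 FPKM (SD, n = 2; limma adjusted p = 0.00756 and 0.00937). Zbp1, a sensor of Z-form nucleic acid, was at 53.5 and 52.3 against 27.2 and 33.9 FPKM (difference -0.78, limma adjusted p = 0.0137). Trim30a was at 56.8 and 58.3 against 34.4 and 38.6 FPKM (difference -0.64, limma adjusted p = 0.00722). Nek7, a kinase that binds NLRP3 in its assembly, was at 38.0 and 42.0 against 43.8 and 41.6 FPKM, with overlapping labels (difference 0.09, limma adjusted p = 0.447), from 0.024 without wild type replicate 1 to 0.16 without wild type replicate 2. Fewer than the 6 passed as lower with any 1 library left out, and the fewest without Sema6D-/- replicate 1. Gbp2, Gbp3 and Trim30a lost their calls without Sema6D-/- replicate 1 (limma adjusted p = 0.0558, 0.0641 and 0.0509) and Zbp1 without wild type replicate 1 (0.0516).

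Among other caspases and effectors of lytic death, 13 of 22 were tested, 3 fell and 1 rose, with a median difference of -0.10. Over all genes tested 4.91% passed as lower and 4.8% as higher. The gene that rose was Ninj1, whose product ruptures the plasma membrane after pore formation, at 250 and 248 FPKM for the label wild type against 305 and 317 under Sema6D-/- (difference 0.32, limma adjusted p = 0.0134). It lost its call without either library labelled Sema6D-/- (highest limma adjusted p = 0.0998). Among those that fell, Cflar and Birc3, which restrain caspase-8 and death receptor signalling, were at means of 17.0 against 13.8 and 16.3 against 12.5 FPKM. They passed with limma adjusted p-values of 0.0460 and 0.0346, and both lost their call without any 1 of the 4 libraries. Casp8 was at 29.4 and 33.4 against 31.7 and 29.9 FPKM, with overlapping labels (limma adjusted p = 0.870).

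Il18bp and Il1rn, secreted antagonists of the cytokines, were lower. Of 24 other IL-1 family ligands, receptors and antagonists 12 were tested, 2 fell and 0 rose, with a median difference of -0.10. Over all genes tested 4.91% passed as lower. Il18bp, the secreted protein that binds and neutralises IL-18, was at 21.8 and 21.5 FPKM for the label wild type against 10.5 and 12.3 under Sema6D-/-. The labels were far apart, and the mean fell from 21.7 ± 0.23 to 11.4 ± 1.2 FPKM (SD, n = 2; limma adjusted p = 0.00591), a call that held with each library left out but not in the fit of all genes (limma adjusted p = 0.156). Il1rn, the receptor antagonist that competes with IL-1, was at 30.7 and 30.4 against 14.4 and 19.5 FPKM. It fell 1.80-fold (difference -0.83, limma adjusted p = 0.0243), and lost its call without either library labelled wild type or without Sema6D-/- replicate 1 (highest limma adjusted p = 0.0798), in the fit of all genes (limma adjusted p = 0.312) and with no intensity trend in the variances (limma adjusted p = 0.0596). Il1a was at 0.496 and 0.445 against 0.257 and 0.601 FPKM, with overlapping labels, and lay under the filter.

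**Figure D4:**
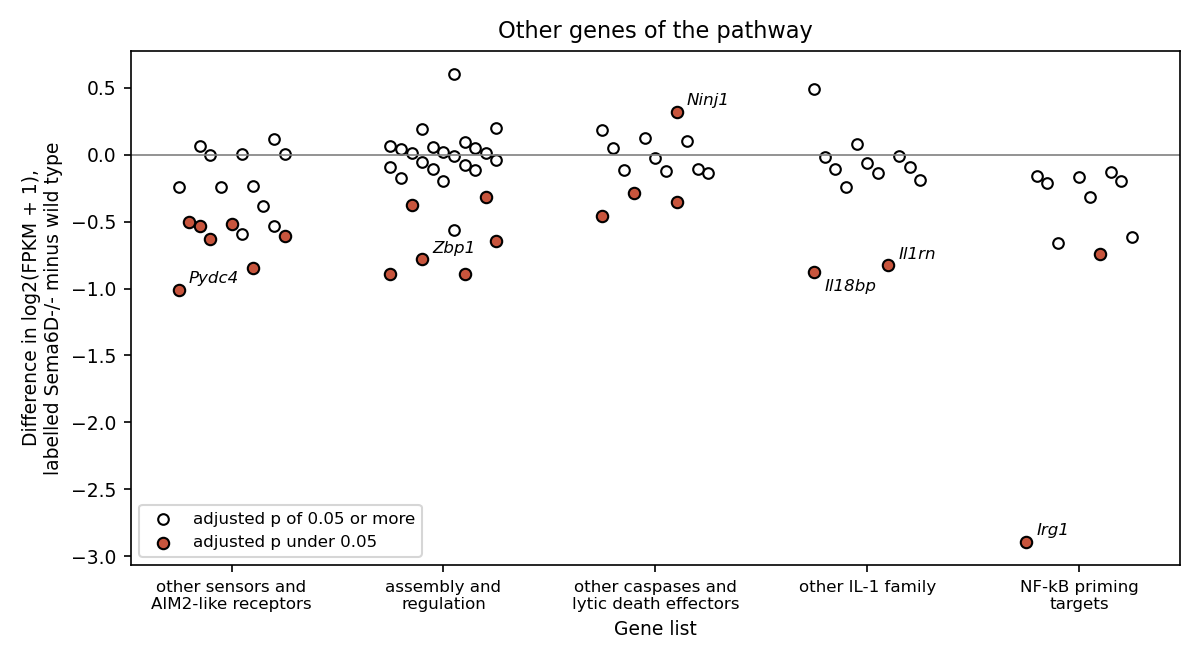
Difference in log2(FPKM + 1), Sema6D-/- minus wild type, for each tested gene of 5 pathway lists, red where the limma adjusted p was under 0.05. Ninj1 at 0.32 is the red point above 0, Il18bp and Il1rn lie at -0.88 and -0.83, and Irg1 at -2.89.

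Targets of NF-κB, the factor that primes Il1b and Nlrp3, were partly lower. Of 16 listed 10 were tested, 2 fell and 0 rose, against 4.91% of all genes tested that passed as lower. The median difference was -0.27. Irg1, which makes itaconate, was at 14.3 and 13.6 FPKM for the label wild type against 0.878 and 1.16 under Sema6D-/- (difference -2.89, limma adjusted p = 0.00038). Ccl3, a chemokine gene, was at 75.9 and 59.0 against 36.3 and 43.2 FPKM (difference -0.74, limma adjusted p = 0.0333), and without wild type replicate 1 or either library labelled Sema6D-/- it no longer passed (highest limma adjusted p = 0.203), nor did it in the fit of all genes (limma adjusted p = 0.363), with no intensity trend (limma adjusted p = 0.0775) and with the replicate block (limma adjusted p = 0.0659). The other 8 tested genes did not pass. Nos2 and Il6, named after their values were seen, lay under the filter and passed in the fit of all genes. Nos2 was at 1.12 and 1.14 against 0.0872 and 0.14 FPKM, and Il6 was at 0.114 and 0.112 FPKM for the label wild type and listed at 0 for the other (differences -0.94 and -0.15). The levels of Il6 are close to the 0.113 and 0.11 FPKM that 1 fragment on a transcript of 1 kb is worth in those libraries, so that its call rests on very few fragments.

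Interferon-stimulated genes, many of which act beside inflammasome sensors, were lower in 25 of 26 cases, against 4.91% of all genes tested, and Irf1, named after its value was seen, was the 1 that rose. The median difference was -0.89. Irf7 fell 3.05-fold, Usp18 3.06-fold, Mx1 2.90-fold and Xaf1 7.48-fold in mean FPKM. Aim2, Casp1 and Casp4, which interferons also induce in macrophages, had differences of -0.11, 0.14 and -0.01 in the same libraries and did not pass. Fewer of the 26 passed as lower with any 1 library left out, and the fewest without Sema6D-/- replicate 1. The differences of Irf7, Usp18, Mx1 and Xaf1 without that library were -1.41, -1.4, -1.24 and -2.685. Without any 1 of the 4 libraries Irf1 lost its call. Gbp2 and Gbp3 stand both in this list and in that of assembly and regulation.

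Il1b lies 4.70 Mb from Sema6d on chromosome 2, at chr2:129364569-129371164. Of 44 listed genes of the interval 43 were found, all within it, and 30 were tested. Of these 4 rose and 0 fell, against 4.8% of all genes tested that were higher, with a median difference of -0.01. Dusp2, a phosphatase of MAP kinases, was at 1.57 and 2.02 against 3.67 and 3.31 FPKM, and Eid1 at 36.2 and 36.3 against 47.1 and 46.8. Secisbp2l was at 20.7 and 19 against 26.7 and 25.5 FPKM, and Blvra, biliverdin reductase, at 139.7 and 138.7 against 160.2 and 164. Some of the 4 calls ended without either library labelled wild type, and all ended without either library labelled Sema6D-/-.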

How the data were processed

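The deposited values are FPKM per gene symbol, normalized between libraries by Cuffnorm 2.2.1, per the submitters' processing notes, which also name mm10, Bowtie2 2.2.3, TopHat2 2.0.13 and SAMtools 0.1.19. The annotation, strand setting and treatment of reads with several positions are not stated in the sources used here. Each file listed 23284 symbols, and 25 that resemble dates had no value. Groups follow the genotype label. Because FPKM are not counts, log2(FPKM + 1) was tested with limma 3.58.1 in R 4.3.3 (eBayes with trend, two-sided, Benjamini-Hochberg adjustment, threshold 0.05), for the 10115 genes averaging at least 1 FPKM. Genes under that filter were taken from a fit of all 23259 genes. Depth was estimated from the smallest steps of FPKM in genes with a single GENCODE M21 transcript, and fragments per gene from the longest transcript, so both are approximate. The members, and 7 gene lists and 9 marker lists, were chosen with earlier results of these data known. Named genes are the 10 members, Sema6d, up to 4 genes per list past the threshold by smallest p, and Il1a, Il1rn, Il18bp, Nlrc4, Nek7 and Casp8. Other names were chosen after their values were seen. On simulated data for this comparison, over 10115 genes, the test recovered 42% of 50 genes changed by 0.5 on the log2 scale, 84% at 1, 98% at 2 and 100% at 3, with 8 false calls among 170. Those changes were planted only in genes averaging above about 5 FPKM. Nlrp1a, Nlrp3, Il18 and Il1b average less, so these rates do not cover them. The simulation also drew independent noise for each library and changed fewer genes than passed in the data. Its 8 false calls therefore set no bound on those in the data. There were 13 alternatives. Protein sequences were not used here, and some listed genes are not reported here.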

Additional observations from a re-analysis of the deposited data

How the results depend on the processing

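Over all genes tested, 486 were higher and 497 lower. With no filter these counts were 115 and 99, and with no trend in eBayes 261 and 327. They ranged from 72 to 276 and from 87 to 290 when 1 library was left out. The titles share the numbers 1 and 2 between labels, but same-numbered libraries did not deviate together (r = -0.0183 over 10115 genes). With the replicate number as a block, 300 genes were higher and 337 lower, and no call among the 10 inflammasome and IL-1 genes changed. Among the inflammasome and IL-1 genes the 1 higher call was absent with a mean of at least 5 FPKM, where 0 passed because Nlrp1a was not tested, and it numbered 1 to 2 when 1 library was left out. The 2 lower calls became 0 without a filter or with eBayes without trend, 1 after quantile normalization, and 0 with any library left out. The difference of Nlrp1b remained -0.61 without a filter (limma adjusted p = 0.334) and with eBayes without trend (0.0698), and was -0.59 after quantile normalization (0.0565). It ranged from -0.77 to -0.46 when 1 library was left out. That of Gsdmd was -0.31 without a filter (limma adjusted p = 0.133) and with eBayes without trend (0.0649), and ranged from -0.35 to -0.28 when 1 library was left out. Nlrp1a passed in all 12 alternatives that tested it, at a limma adjusted p of up to 0.0484 without a filter, with differences from 0.81 (pseudocount 5) to 3.66 (pseudocount 0.1).

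Counts of lower and higher genes on the lists are of those that passed. No filter left 0 of 7 other sensors lower (and Nlrp1c-ps, tested there, higher) and 0 of 6 assembly genes. It left 0 death effectors in either direction, and 1 of 25 interferon-stimulated and 1 of 4 interval genes. Of the IL-1 family the 1 gene then lower was Il33, untested in the other fits and at 0.216 and 0.211 FPKM against a listed 0. With no trend in eBayes, 0 death effectors passed, 1 IL-1 family gene and 1 NF-κB target were lower, and 2 interval genes were higher. The block left 1 death effector and 1 NF-κB target lower and 2 interval genes higher, and quantile normalization 1 death effector lower. Robust estimation added 1 higher IL-1 family gene and 1 lower interval gene. Irf1 was not called with no filter, with no trend or with the block.

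Signs turned where differences were near 0. Without wild type replicate 2 the difference was -0.0015 for Nlrp3, 0.065 for Casp4 and 0.062 for Casp8. Without Sema6D-/- replicate 1 it was 0.013 for Casp4 and 0.12 for Il1a, and without Sema6D-/- replicate 2 it was 0.015 for Casp8. With 1 library left out, the difference ranged from -0.0015 to 0.22 for Nlrp3, from -0.086 to 0.065 for Casp4, from -0.11 to 0.062 for Casp8, from -0.23 to 0.12 for Il1a, from 0.35 to 0.77 for Il18 and from -0.65 to -0.20 for Il1b. In the fit of all genes Il1b passed without wild type replicate 1 or 2 (limma adjusted p = 0.0364 and 0.00924), with 1 library left under that label, which is assumed to vary like the others. The cause was not tested for any of these changes. Depth limits Il1b most, at an estimated 1 fragment in each library labelled Sema6D-/-.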
